A study of Homo sapiens with 4 samples.

Results

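The ING (inhibitor of growth) family consists of 5 human genes, ING1 to ING5, and ING5 is the gene that the siRNA of this study was aimed at. Members were taken by symbol: Entrez Gene identifiers of ING1, ING2, ING3, ING4 and ING5 (3621, 3622, 54556, 51147 and 84289) were looked up in the gene tables, and all 5 were found in each of the 4 libraries, among 16856 genes of the siRNA pair and 17009 genes of the vector pair. RNA sequencing was done on cells labelled HepG2, the name of an established liver cancer line, and each group holds 1 library; several defining liver transcripts were absent or near 0 in these libraries, as given with the marker values. The first pair, the siRNA pair, is ING5 siRNA, cells treated with an siRNA against ING5, set against Control siRNA. The second, the vector pair, is JFK, cells transfected with FLAG-JFK, set against Vector. JFK is an alias of FBXO42, an F-box protein of ubiquitin ligases. The sequence, dose and duration of the siRNA are unstated in the sources used here, and each value rests on 1 library.

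ING proteins are small chromatin adaptors. Each carries a C-terminal PHD finger that binds histone H3 trimethylated at lysine 4, and an N-terminal region that docks it to a histone-modifying complex. ING1 and ING2 belong to the SIN3 histone deacetylase complex, ING3 to the NuA4/TIP60 acetyltransferase complex, ING4 to the HBO1 complex, and ING5 to HBO1 complexes and to those of MOZ and MORF. The family is known for tumour suppression and for work with p53, so a question that a knockdown of ING5 raises is whether its paralogs stand at other levels when ING5 is lower.

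The PHD finger is a domain that all 5 members have in common. Its coding stretch is shown for each, to let their likeness to the siRNA target be read within it. The stretches come from GENCODE version 29 transcripts (GRCh38, a later build than the GRCh37 named in the processing notes). Each stretch is 132 bases, 44 codons, on the coding strand from 5′ to 3′, and capitals mark bases that differ from ING5.
ING5: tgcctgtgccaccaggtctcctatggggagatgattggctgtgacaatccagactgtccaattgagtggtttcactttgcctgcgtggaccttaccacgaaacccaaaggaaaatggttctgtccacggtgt
ING4: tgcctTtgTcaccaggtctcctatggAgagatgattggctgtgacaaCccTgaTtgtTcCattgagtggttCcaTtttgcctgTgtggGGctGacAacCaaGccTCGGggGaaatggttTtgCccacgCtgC
ING1: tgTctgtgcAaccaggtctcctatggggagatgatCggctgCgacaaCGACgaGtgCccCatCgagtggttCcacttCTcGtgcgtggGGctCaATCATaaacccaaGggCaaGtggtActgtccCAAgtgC
ING2: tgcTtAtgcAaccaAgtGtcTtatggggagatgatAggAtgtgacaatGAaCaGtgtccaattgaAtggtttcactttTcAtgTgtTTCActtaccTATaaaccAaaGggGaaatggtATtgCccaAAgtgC
ING3: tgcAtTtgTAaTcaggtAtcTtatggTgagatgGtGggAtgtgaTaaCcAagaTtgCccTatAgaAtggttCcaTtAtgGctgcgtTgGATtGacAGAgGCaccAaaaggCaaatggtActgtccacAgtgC
ING4 shared 106 of the 132 bases with ING5, ING1 and ING2 shared 100 each, and ING3 shared 94. The ING5 stretch lies in exons 6 to 8 (GRCh38 chr2:241723021-241725004, plus strand) and that of ING4 in exons 6 to 8 (chr12:6651219-6652324, minus strand). Those of ING1 (chr13:110719729-110719860) and ING2 (chr4:183510752-183510883) each lie within the last exon on the plus strand, and that of ING3 in exons 10 to 12 (chr7:120970866-120974805, plus strand). The spans of ING3, ING4 and ING5 include introns, which are not shown. The longest exact run that the coding sequence of ING5 shared with ING1 was 25 bases, accaggtctcctatggggagatgat, and with ING4 it was 20 bases, gagatgattggctgtgacaa. With ING2 it was 14 bases and with ING3 10 bases. No stretch of 50 bases was shared between transcripts of any 2 members. Such stretches were shared with other genes by 4.93% of those of ING1, CARS2 among those genes, and by 2.51% of those of ING5, and by none of those of ING2, ING3 and ING4.

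Reads assigned to genes numbered 9030075 for ING5 siRNA, 9196979 for Control siRNA, 7237325 for JFK and 7179365 for Vector. Every interval of a fold is an exact 95% interval by the Clopper-Pearson method and covers counting error alone, and no p-value is given since no group has a replicate. FBXO42 had 115 counts in the library labelled JFK, against 116 in Vector (log2 fold 0.01, interval −0.38 to 0.39). The transcript that the label names was not higher there, and this library is named by its label for that reason. FBXO42 in the siRNA pair had 97 counts in ING5 siRNA and 115 in Control siRNA (−0.22, interval −0.63 to 0.18). Of 12 hepatocyte markers, 3 had at least 20 counts in every library: HNF4A, CPS1 and RBP4. ALB, TTR and TF, which code for albumin, transthyretin and transferrin, were not listed in any table. AFP (alpha-fetoprotein), APOA1 and APOB (apolipoproteins) had at most 2 counts where they were listed. These values go against the name HepG2, which is used only as the label. The 12 markers summed to 4593 CPM in ING5 siRNA and 5100 CPM in Control siRNA, and to 3094 CPM in the library labelled JFK, against 3172 CPM in Vector. Nearly all of each sum was CPS1, a urea cycle enzyme gene, with 41314 of 41476 counts in ING5 siRNA and 46771 of 46901 in Control siRNA. Of other cell types, 4 leukocyte markers summed to at most 13 counts in any library with CD3E at 0 in each, 4 endothelial markers to 12.1 CPM in ING5 siRNA and 26.3 CPM in Control siRNA, 4 fibroblast markers to 64.3 CPM and 55.9 CPM, and 4 breast epithelial markers, mostly KRT17, to 258 CPM and 296 CPM. For the vector pair the endothelial sum was 164 CPM in the library labelled JFK, against 145 CPM in Vector, the fibroblast sum 55.4 CPM and 49.9 CPM, and the breast epithelial sum 3810 CPM and 2930 CPM; the part of these markers in the results was not tested.

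ING5 was lower in ING5 siRNA than in Control siRNA, and of its 4 paralogs ING1 was higher, ING3 was lower, and ING2 and ING4 lay close to their control. ING5, the PHD-finger subunit of HBO1, MOZ and MORF complexes, had 81 counts in ING5 siRNA and 144 in Control siRNA, which is 1.70 RPKM against 2.99 RPKM. The normalised level was 57.4% of control (interval 43.0% to 75.6%; log2 fold −0.80, interval −1.22 to −0.40). The transcript was lower and still present in the library labelled as its knockdown. In bulk RNA, fewer cells with a transcript and less of it per cell cannot be told apart.

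ING1, which brings SIN3 deacetylase complexes to methylated histone H3, had 1087 counts in ING5 siRNA and 792 in Control siRNA. Its level was 41.3 RPKM in ING5 siRNA and 29.8 RPKM in Control siRNA, a normalised fold of 1.40 (interval 1.27 to 1.53; log2 fold 0.48, interval 0.35 to 0.62). ING1 was the paralog with the most reads, so its counting interval is the narrowest of the family. Of 11634 genes whose normalised counts averaged 20 or more (measured genes), 6.46% lay at least as far above control as ING1, and 3.62% did among genes with a mean of at least 100.

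ING2, the other SIN3-linked member, had 99 counts in ING5 siRNA and 100 in Control siRNA, 9.58 RPKM in each. Its log2 fold was 0.01, with an interval from −0.41 to 0.43, so a difference within those bounds was not detectable at this depth. ING3, the TIP60-complex member, had 127 counts in ING5 siRNA and 180 in Control siRNA, 6.28 RPKM against 8.81 RPKM. Its log2 fold was −0.48 (interval −0.82 to −0.14), and 6.87% of measured genes lay at least as low.

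ING4, the member most like ING5 and its alternative in HBO1 complexes, had 203 counts in ING5 siRNA and 213 in Control siRNA, 15.3 RPKM against 15.8 RPKM. Its log2 fold was −0.04, with an interval of −0.33 to 0.24. The closest relative in sequence and complex therefore stood within counting error of its control, while a fold of 1.40, the size seen for ING1, lies outside its interval.

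A gene was counted as higher where its normalised count was at least 25% above control and as lower where it was at least 20% below it, the same ratio in both directions (0.32 on the log2 scale). By this threshold 1 of the 5 members was higher (ING1) and 2 were lower (ING3 and the siRNA target ING5). Over all measured genes 13.4% were higher and 13.6% lower, so a member past this threshold is not rare in the siRNA pair. ING5 was the 1 member that was also at least 1.5-fold lower, as were 4.26% of measured genes. The interval left out 0 for 3 of the 5 members and for 39.2% of measured genes.

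**Figure D1:**
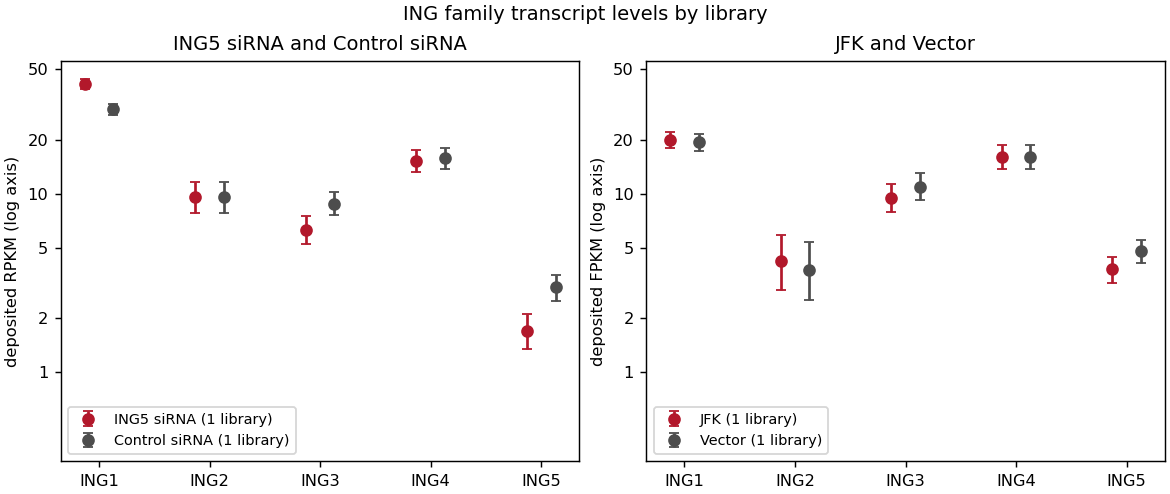
Deposited transcript levels of the 5 ING genes, RPKM in the siRNA pair and FPKM in the vector pair, on a log axis; points are single libraries and bars are exact 95% Poisson intervals of the count carried to the level. In ING5 siRNA, ING1 stands at 41.3 RPKM against 29.8 RPKM in Control siRNA and ING5 at 1.70 against 2.99 RPKM, while all 5 pairs of bars overlap in the vector pair.

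Levels per kilobase ordered the family the same way in both siRNA libraries, ING1 first, then ING4, ING2, ING3 and ING5. In ING5 siRNA no neighbours in that order had overlapping intervals. In Control siRNA ING2 at 9.58 RPKM (7.79 to 11.7) and ING3 at 8.81 RPKM (7.57 to 10.2) did overlap. These intervals cover counting error and take the listed gene length as exact. For ING3 that length was 2221 bases in the siRNA pair and 1755.55 in the vector pair. How far the order of ING2 and ING3 depends on the length used was not tested. ING5 was the lowest member in both, at 1.70 RPKM (1.35 to 2.11) in ING5 siRNA and 2.99 RPKM (2.52 to 3.52) in Control siRNA.

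On the RPKM scale the difference was larger for ING1 than for ING5. ING1 differed by 11.5 RPKM (ING5 siRNA minus Control siRNA), ING3 by −2.53 RPKM and ING5 by −1.29 RPKM. The level of ING1 was 24.3 times that of ING5 in ING5 siRNA and 9.97 times in Control siRNA. Summed over the 5 members the family stood at 74.2 RPKM in ING5 siRNA and 67.0 RPKM in Control siRNA. Read counts of the 5 together were 1597 and 1429 in these libraries (log2 fold 0.18, interval 0.08 to 0.29). Without ING5, the 4 paralogs summed to 1516 counts in ING5 siRNA and 1285 in Control siRNA (log2 fold 0.26, interval 0.15 to 0.37). ING1, the paralog that was higher, made up most of these reads. With ING1 left out as well, the other 3 members summed to 429 counts in ING5 siRNA and 493 in Control siRNA (−0.18, interval −0.37 to 0.01).

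The make-up of the family differed between the siRNA libraries. ING1 held 55.8% of the summed RPKM in ING5 siRNA and 44.5% in Control siRNA, a difference of 11.3 percentage points (7.43 to 15.1 from counting error). ING5 held 2.29% in ING5 siRNA and 4.46% in Control siRNA (a difference of −2.17 points, −3.06 to −1.28). The share of ING3 was 8.47% in ING5 siRNA and 13.1% in Control siRNA (−4.67 points, −6.97 to −2.38). ING4 held 20.6% and 23.6% in these libraries, and ING2 12.9% and 14.3%, with both differences inside counting error.

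**Figure D2:**
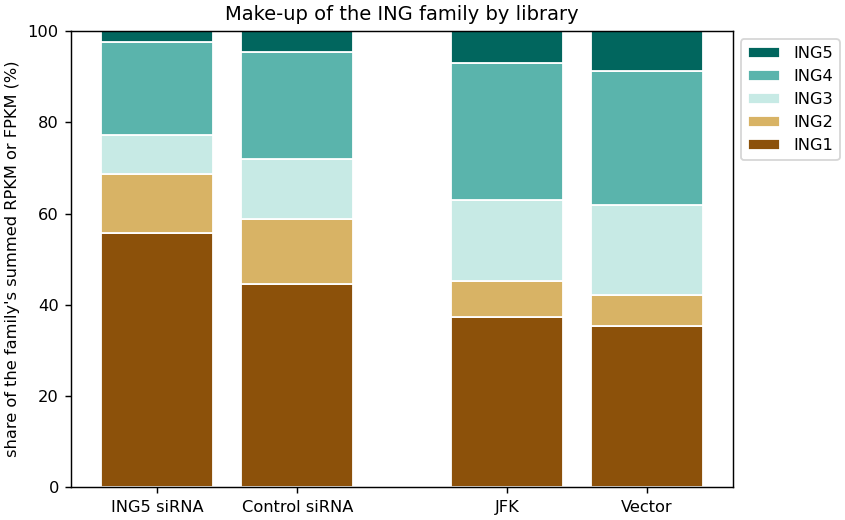
Share of the family's summed RPKM (siRNA pair) or FPKM (vector pair) held by each ING gene, in percent, 1 bar per library. ING1 takes 55.8% in ING5 siRNA and 44.5% in Control siRNA. In the vector pair its share is 37.3% in the library labelled JFK, against 35.2% in Vector.

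Ratios of reads between members need no scaling between libraries, and all 10 were computed in each pair. In the siRNA pair 6 of the 10 had an interval that left out 1, with no adjustment for their number. Each of these 6 held ING1 or ING5, so they are not 6 separate results. The like share over all pairs of genes was not computed. Among single measured genes, 39.2% had a fold interval that left out 0. ING1 had 13.4 reads for each read of ING5 in ING5 siRNA and 5.50 in Control siRNA, a ratio of ratios of 2.44 (exact conditional interval 1.82 to 3.29). Against ING4, the ratio of ING1 was 5.35 in ING5 siRNA and 3.72 in Control siRNA (1.44, interval 1.16 to 1.79), so the folds of ING1 and ING4 differed beyond counting error whatever the scaling. ING1 set against ING3 gave 1.94 (1.51 to 2.51) and against ING2 gave 1.39 (1.02 to 1.88). ING3 set against ING4 gave 0.741 with an interval of 0.544 to 1.01. ING3 set against ING5 gave an interval of 0.867 to 1.82, so the lower position of ING3 differed beyond counting error from that of ING1 and not from those of ING4 or ING5.

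Between the library labelled JFK and Vector no member passed the threshold in either direction, where 6.84% of 12106 measured genes were higher and 9.56% lower. That split depends on scaling and unit: higher genes were 41.7% of those past the threshold, 31.7% with total-count scaling and 30.3% by FPKM with 0.5 added. No member was 1.5-fold lower, as were 2.16% of measured genes, and no member's interval left out 0, as it did for 25.4% of them. ING5 was the member farthest from its control, with 145.44 expected counts in the library labelled JFK, against 180.87 in Vector, 3.78 FPKM against 4.77 FPKM (log2 fold −0.29, interval −0.62 to 0.02). Of measured genes 11.3% lay at least as low.

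ING1 had 379 counts in the library labelled JFK, against 358 in Vector (19.98 against 19.4 FPKM; log2 fold 0.10, interval −0.11 to 0.32). ING3 had 121 counts in the library labelled JFK, against 132 in Vector (9.51 against 10.98 FPKM; log2 fold −0.10, interval −0.47 to 0.26). ING4 had 166 counts in the library labelled JFK, against 168 in Vector, 16.06 against 16.16 FPKM. ING2 was counted thinly, with 34 counts in the library labelled JFK, against 30 in Vector, and its interval of −0.55 to 0.96 around a log2 fold of 0.20 is the widest of the family. The signs of ING1, ING2, ING3 and ING5 were the same as in the siRNA pair, and that of ING4, near 0 in both, was not. The folds of ING1, ING3 and ING5 were smaller than in the siRNA pair and that of ING2 was larger, with intervals that all reach 0. Whether the folds differ between the pairs was not tested. Of the 10 ratios between members, 1 had an interval that left out 1: ING1 over ING5, at 2.61 in the library labelled JFK, against 1.98 in Vector (ratio of ratios 1.32, upper bound 1.73 and lower bound just above 1). The 5 members together had a log2 fold of −0.02 (interval −0.16 to 0.12), and ING5 held 7.06% of the summed FPKM in the library labelled JFK, against 8.66% in Vector.

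**Figure D3:**
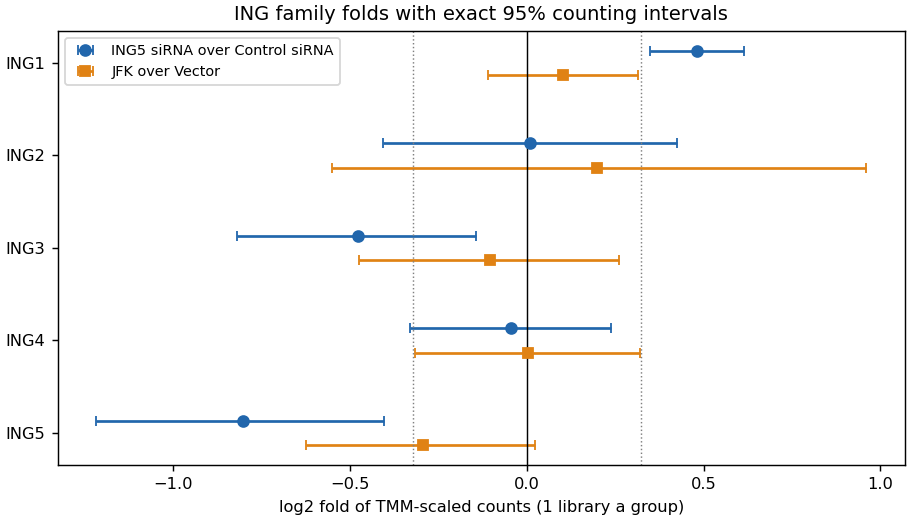
Log2 folds of the 5 ING genes on TMM-scaled counts for ING5 siRNA over Control siRNA (circles) and for the library labelled JFK over Vector (squares); bars are exact 95% counting intervals and dotted lines mark 25% above and 20% below control. ING1 at 0.48 lies to the right of 0 and ING3 at −0.48 and ING5 at −0.80 to the left of it in the siRNA pair, while every interval of the vector pair holds 0.

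The order of levels in the vector pair began as in the siRNA pair, with ING1 and then ING4, but their intervals overlapped in both libraries: ING1 at 18.0 to 22.1 FPKM and ING4 at 13.7 to 18.7 FPKM in the library labelled JFK, and 17.4 to 21.5 and 13.8 to 18.8 FPKM in Vector. ING3 came next, ahead of ING2 and ING5, which did not differ beyond counting error, at 4.18 and 3.78 FPKM in the library labelled JFK, against 3.74 and 4.77 FPKM in Vector. The 2 pairs were quantified separately, with other gene lengths for ING1 (2887 bases in the siRNA tables, 2598.25 in the vector tables) and ING3 (2221 and 1755.55), so levels are not compared between them by a fold. Side by side, the control libraries gave ING1 29.8 RPKM in Control siRNA and 19.4 FPKM in Vector, ING2 9.58 and 3.74, and ING5 2.99 and 4.77.

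**Figure D4:**
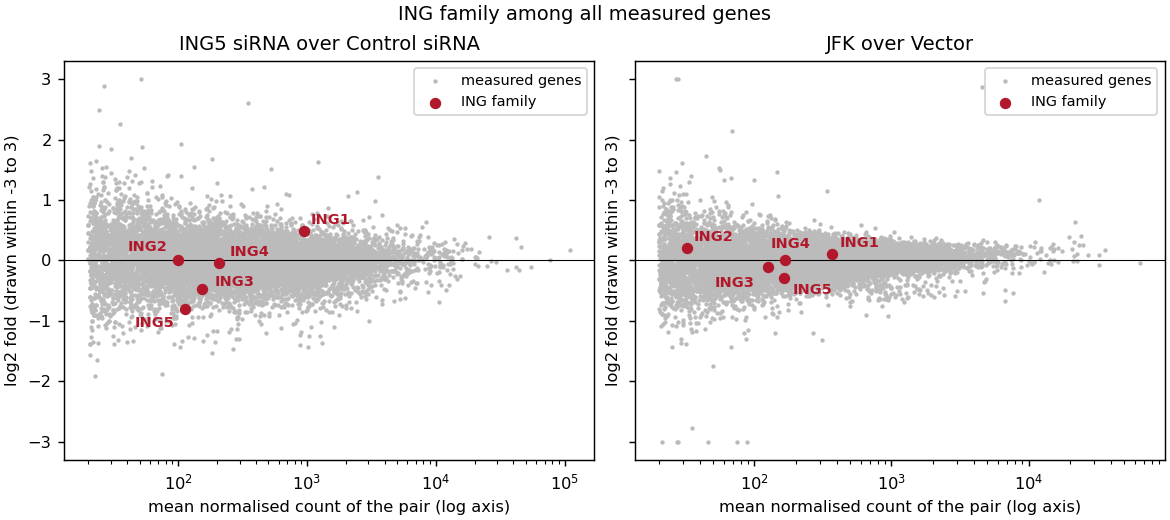
Log2 fold against mean normalised count (log axis) for every gene with a mean of at least 20, for ING5 siRNA over Control siRNA on the left (11634 genes) and the library labelled JFK over Vector on the right (12106 genes); ING genes are marked and folds beyond 3 are drawn at the edge. In the siRNA pair ING1 lies at 0.48 above most genes of similar count, with ING5 at −0.80 below most, and in the vector pair the members lie between −0.29 and 0.20.

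The genes beside the members on the chromosome were read because ING1 overlaps CARS2 in the RefSeq annotation (a mitochondrial cysteine tRNA synthetase gene) and ING5 lies next to DTYMK (thymidylate kinase). CARS2, which shares sequence with ING1, had 843 counts in ING5 siRNA and 866 in Control siRNA. Its log2 fold was −0.01 (interval −0.15 to 0.12). Whether reads of CARS2 were counted for ING1 was not tested. DTYMK had 175 counts in ING5 siRNA and 252 in Control siRNA (log2 fold −0.50, interval −0.79 to −0.22). Of measured genes 6.30% lay at least as low, and a link to the fold of ING5 was not tested. With JFK and Vector, DTYMK stood at 444 counts in the library labelled JFK, against 396 in Vector (0.19, interval −0.01 to 0.38), where ING5 lay below 0.

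Partners of the ING proteins in their complexes are read against the 13.4% of measured genes that were higher, the 13.6% that were lower and the 27.0% past the threshold either way in the siRNA pair. Of 15 SIN3 and HDAC genes, 1 was higher and 3 were lower, 4 in all and near that share, with a median log2 fold of −0.0045, against −0.0011 over all measured genes. SAP30L, a SIN3 subunit related to SAP30, stood lowest with 114 counts in ING5 siRNA and 262 in Control siRNA (−1.17, interval −1.51 to −0.85), next to BRMS1, a subunit named for metastasis suppression in breast cancer, with 127 and 190 counts (−0.55). Highest were BRMS1L, its paralog, with 495 counts in ING5 siRNA and 402 in Control siRNA (0.32), and SINHCAF, another subunit, just under the threshold with 1614 and 1315 counts. The central scaffold SIN3A had 0.12 and the catalytic subunits HDAC1 and HDAC2 −0.15 and 0.13.

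Of 17 NuA4/TIP60 genes none was higher and 2 were lower, against 13.4% and 13.6% of measured genes, with a median of 0.05. The scaffold genes EPC1 and EPC2 were these, EPC1 with 212 counts in ING5 siRNA and 297 in Control siRNA (−0.46, interval −0.72 to −0.20) and EPC2 at −0.34. DMAP1 and MRGBP, at 0.24 and 0.23, were the highest, and the catalytic subunit gene KAT5 lay at −0.17. ING3 itself, at −0.48, lay within counting error of EPC1.

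Of 5 HBO1 genes none was higher and 1 was lower, where 13.6% of measured genes were lower, with a median of −0.14. JADE2, a scaffold subunit that binds the ING protein into the complex, had 412 counts in ING5 siRNA and 691 in Control siRNA (−0.72, interval −0.90 to −0.54). KAT7, the acetyltransferase HBO1 itself, had 578 and 719 counts (−0.29, interval −0.45 to −0.13), while JADE1 and JADE3 lay at −0.10 and −0.01. Of 6 MOZ and MORF genes none passed the threshold, as 27.0% of measured genes did, and the median was −0.16. The catalytic subunit gene KAT6A lay at −0.26 (interval −0.44 to −0.09) and the scaffold gene BRPF1 at 0.17 (−0.05 to 0.39). MEAF6, a small subunit counted in 3 of these lists, lay at −0.14.

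Of 23 p53 target genes, 4 were higher and 2 lower, with a median of −0.05. GADD45A, a growth-arrest gene, had 267 counts in ING5 siRNA and 157 in Control siRNA (0.79, interval 0.50 to 1.08), and FDXR, a mitochondrial reductase gene, 73 and 58 (0.35, interval −0.16 to 0.88). MDM2, the ubiquitin ligase of p53, stood lowest with 838 counts in ING5 siRNA and 1274 in Control siRNA (−0.58, interval −0.71 to −0.45), next to the DNA repair gene XPC at −0.36. The list went in both directions, and its share past the threshold, 6 of 23, is near the 27.0% of all measured genes that passed in either direction.

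The same lists in the vector pair held these numbers past the threshold: 2 of 15 for SIN3 and HDAC, 0 of 17 for NuA4/TIP60, 0 of 5 for HBO1, 1 of 6 for MOZ and MORF, and 7 of 22 measured p53 targets, where 16.4% of all measured genes passed in either direction. Their medians lay between −0.07 and 0.07. ARID4A, a SIN3 and HDAC gene past the threshold, had 110 counts in the library labelled JFK, against 83 in Vector (0.42, interval 0.0025 to 0.86). SAP30L had 255 counts in the library labelled JFK, against 189 in Vector (0.45, interval 0.18 to 0.73), on the other side of 0 from its fold in the siRNA pair. JADE2 was likewise on the other side, with 1260 counts in the library labelled JFK, against 1127 in Vector (0.18, interval 0.06 to 0.30). EPC1 lay at −0.29, BRMS1L at −0.28 and KAT5 at 0.22, each with an interval that held 0. KAT6B, the MORF acetyltransferase, had 126 counts in the library labelled JFK, against 163 in Vector (−0.35, interval −0.70 to −0.01). Of p53 targets, BBC3 stood highest, with 27 counts in the library labelled JFK, against 18 in Vector (0.59, interval −0.31 to 1.55). RRM2B, a ribonucleotide reductase subunit gene, stood lowest, with 133 and 203 counts (−0.59, interval −0.92 to −0.27).

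**Figure D5:**
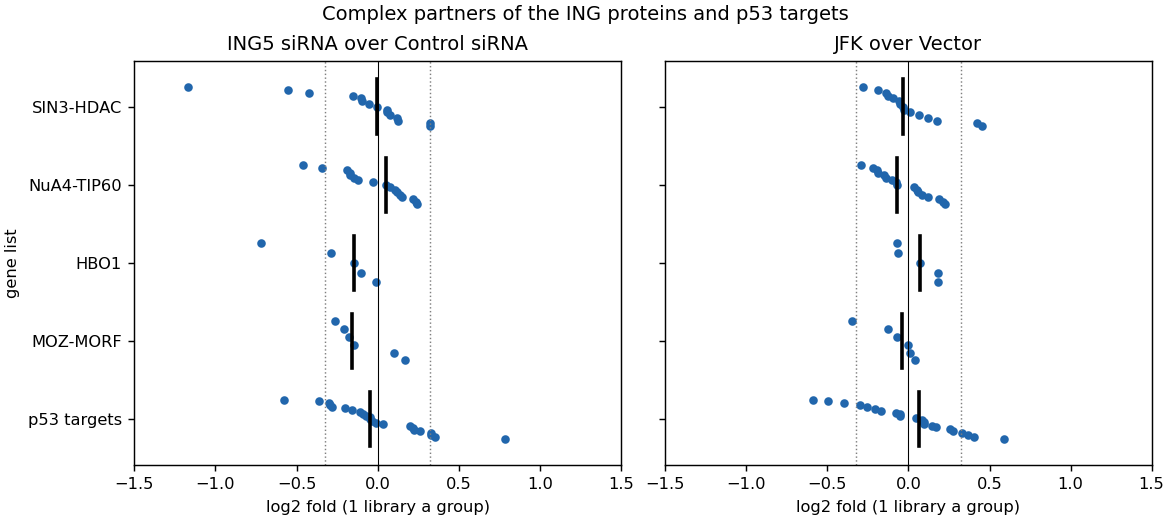
Log2 folds of the measured genes of each list, 1 point a gene, with the list median as a black bar and dotted lines at 25% above and 20% below control, for ING5 siRNA over Control siRNA on the left and the library labelled JFK over Vector on the right. In the siRNA pair SAP30L at −1.17 and JADE2 at −0.72 stand apart from the rest of their lists.

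Genes whose folds in the 2 pairs were nearest to those of ING1 were WNK2, HDAC10 and GNPTG, at distances of 0.0157, 0.0210 and 0.0225 on the plane of both log2 folds, among 6872 genes with whole counts and a mean of at least 50. WNK2 had 151 counts in ING5 siRNA and 111 in Control siRNA, and 134 in the library labelled JFK, against 126 in Vector. Within 0.1 of ING1 lay 71 of these genes. Nearest to ING5 were TMEM38B, ELMOD2 and FARP2, at 0.0657, 0.0668 and 0.0725, and 12 genes lay within 0.1 of it. These likenesses rest on 4 libraries, and no more than the values is read from them.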

How the data were processed

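The data are gene tables of 4 RNA-seq libraries, grouped by the transfection tag of the labels. FastQC, fastp, STAR and DESeq2 are named in the submitters' processing notes, with the builds GRCh37 and hg19 and without versions or roles. The siRNA tables hold deposited whole counts and deposited RPKM, per the file headers; the vector tables hold deposited expected counts, which can be fractional where reads are divided among genes, and deposited FPKM, per the file headers. For the 5 members, and for 67 list and neighbouring genes, counts in the siRNA tables matched those implied by RPKM and length within 0.001 counts. Expected counts of ING5 were fractional and those of the other members whole; in the vector tables the counts of members differed somewhat from those implied by FPKM, most for ING3 in Vector (−5.12%).

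Entrez identifiers were matched to symbols through a RefSeq table of GRCh38, 16767 of 16856 in the siRNA pair and 16899 of 17009 in the vector pair; 2 identifiers listed more than once and 1 with a blank count were left out. Scaling used TMM (trims 0.3 and 0.05) over genes with a mean of at least 20, to the pair's mean library size. Log2 folds were taken after adding 0.5. Python 3.11.15 was used with scipy 1.17.1, numpy 2.4.6, pandas 2.3.3, matplotlib 3.10.9 and, for sequences, Biopython 1.88. The code was run on simulated counts that held counting error alone. That run checks the code and cannot show how far libraries of the same group would differ. Intervals round expected counts to whole numbers. With 1 library a group no test was run. Reads are not independent molecules, so intervals cover counting error only. No source used here says whether counting used strand, so reads of ING1 and of CARS2, which overlap, cannot be told apart there.

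The members, lists and threshold were chosen with earlier results of these data known. Named genes were the 5 members and their pseudogene INGX, FBXO42, genes from the 2 highest and 2 lowest of each list, and the 3 genes nearest to ING1 and ING5; CARS2 and the genes beside the members were added by position, and catalytic subunits and scaffolds of the lists by role after their values were seen. Of those highest and lowest genes, BRD1 and BRPF3 are not given for the siRNA pair, and only some are given for the vector pair. The alternatives were other scalings, FPKM or RPKM, 5 added, other filters and thresholds, whole counts only, and shares from counts.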

Additional observations from a re-analysis of the deposited data

How the results depend on the processing

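Over the 7 alternative settings the log2 folds of the siRNA pair ran from 0.46 to 0.51 for ING1, 0.00 to 0.04 for ING2, −0.49 to −0.45 for ING3, −0.05 to −0.02 for ING4 and −0.81 to −0.67 for ING5. In the vector pair they ran from −0.33 to −0.29 for ING5 and from −0.03 to 0.01 for ING4, whose sign is not fixed, and no member left its counting interval under any of them. The −0.67 of ING5 came from RPKM, where 0.5 was added to levels of 1.70 and 2.99. That addition draws the fold toward 0, so the value is no sign of a weaker difference by RPKM. The same 0.5 was added to FPKM in the vector pair. The sum over the 5 members, whose alternatives were chosen after seeing the data, ran from 0.14 to 0.21 in the siRNA pair. The difference in the share of ING5 was −5.00 points in the siRNA pair and −3.61 in the vector pair with counts alone, which weigh its long transcript more. Counts of genes past the threshold depend on filter and threshold. In the siRNA pair 1556 were higher and 1586 lower, against 3674 and 3567 with no filter, 922 and 1057 at a mean of at least 100, 476 and 496 at 1.5-fold, and 95 and 79 at 2-fold. In the vector pair 828 were higher and 1157 lower, against 2572 and 3078 with no filter, 326 and 571 at a mean of at least 100, 176 and 261 at 1.5-fold, and 31 and 36 at 2-fold; by FPKM 507 were higher, and with whole counts only 590 were lower. Higher genes were 41.7% of these calls in the vector pair, 31.7% with total-count scaling and 30.3% by FPKM. The cause of these shifts in the split was not tested. No paired analysis was possible because each group holds 1 library. ING2, with 30 to 34 counts in the vector pair, is limited by depth.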

Other observations

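Among up to 5 measured protein-coding genes on each side of a member, 2 of the 6 beside ING5 were at least 20% lower in the siRNA pair, where 13.6% of all measured genes were: DTYMK, and BOK, a BCL2-family gene, with 97 counts in ING5 siRNA and 146 in Control siRNA (log2 fold −0.56, interval −0.95 to −0.19). The 4 others, STK25, THAP4, ATG4B and D2HGDH, lay between −0.13 and 0.13. In the vector pair the 6 lay between 0.14 and 0.36, where ING5 lay at −0.29. Beside ING1, 2 of 10 were at least 25% higher in the siRNA pair, the collagen genes COL4A1 at 0.55 and COL4A2 at 0.33, and 1 was lower, against 13.4% and 13.6% of all measured genes. Beside ING3, 2 of 10 were higher, CPED1 at 1.52 with 80 counts in ING5 siRNA and 28 in Control siRNA and FAM3C at 0.38. Lower were 2, LSM8 at −0.44 and CTTNBP2 at −0.34. CTTNBP2 had 34 counts in ING5 siRNA and 44 in Control siRNA, and its interval of −1.04 to 0.33 held 0. Beside ING2, 1 of 10 was lower and none higher, and beside ING4 none of 10 was either. These genes were named after their values were seen.

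INGX, a pseudogene of the family on chromosome X, had 6 counts in ING5 siRNA and 2 in Control siRNA, too few for a direction (log2 interval −0.87 to 4.95), and 17.46 expected counts in the library labelled JFK, against 14.23 in Vector. It shared no stretch of 50 bases with any of the 5 members in GENCODE transcripts.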
